A study of Caenorhabditis elegans with 2 samples.

Results

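The nuclear hormone receptor genes of Caenorhabditis elegans other than nhr-10, nhr-68 and nhr-114 were examined as places where the receptor NHR-10 was found on DNA. All protein-coding genes with a symbol starting in nhr- were taken from the Ensembl annotation of WBcel235, the assembly also called ce11. This gave 266 receptor genes of 19973 protein-coding genes on the 6 chromosomes. Chromatin immunoprecipitation and sequencing (ChIP-seq) was done on whole larvae of strain OP239 (unc-119(ed3) III; wgIs239) in the last larval stage, L4, with both sexes pooled and the age unknown. The strain carries an inserted transgene for nhr-10 tagged with eGFP, a green fluorescent protein, in unc-119 mutant worms, so binding was that of the tagged protein in all tissues together. There was 1 group with 2 biological replicates and no second condition, so values were set beside those of all protein-coding genes and no test between groups could be made.

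Nuclear hormone receptors are transcription factors that bind DNA through a pair of zinc fingers, and many are switched by small fat-soluble ligands. Nematodes have a very large family of them, most of which descend from a gene related to the vertebrate receptor HNF4. Only a few worm receptors have clear counterparts in insects or vertebrates, and these act mainly in development and molting. In the intestine, several receptors are known to act in networks that adjust metabolism to diet, and receptors in such networks often bind at each other's genes. NHR-10 itself is known for inducing the propionate shunt, an alternative route of propionate breakdown, in worms short of vitamin B12.

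The promoter window of a gene took in the 1000 bp before and the 200 bp after each annotated transcript start. A gene counted as having a region in a list when a summit lay there, and is called bound only for an optimal peak. The authors deposited a list of regions for each replicate (21319 for replicate 1 and 22317 for replicate 2) and a pooled list from both replicates together (17447). By its name the pooled list holds peaks and background, as the input from which optimal peaks were chosen. A pooled region outside the optimal list, above all one of low rank, is therefore not evidence of binding by itself. The strongest 5.70% of the pooled regions form their list of optimal peaks. The same number of regions is the strongest 4.66% of replicate 1 and 4.45% of replicate 2, called here the top regions of a replicate. Each region carries the authors' own signal value, whose scale is not stated. It was used for ranks within a list, with rank 1 the strongest. No read counts were analysed, so the depth is unknown, and intervals given here cover only the sampling of genes.

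The summits at 9 optimal peaks show what the bound sequences looked like. The first 7 lay in promoter windows, and were the 6 receptors with the strongest such peaks and nhr-119, where GAGAGA and TGATAA stood side by side. The last 2 were the strongest peaks inside receptor genes, in introns of nhr-14 and nhr-19. Each is the 61 bp centred on the summit, read on the plus strand of ce11 from the RefSeq genome. Capitals mark GAGAGA (a GA repeat), TGATAA (the core bound by GATA factors) or CACGTG (an E-box), on either strand, where they fall within these 61 bp.
nhr-48, chrX:15707531-15707591: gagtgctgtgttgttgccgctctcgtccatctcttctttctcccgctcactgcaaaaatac
nhr-105, chrIV:7049818-7049878: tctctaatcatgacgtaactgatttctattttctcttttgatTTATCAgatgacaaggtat
nhr-32, chrX:13251579-13251639: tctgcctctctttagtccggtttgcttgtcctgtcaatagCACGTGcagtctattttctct
nhr-135, chrV:7093886-7093946: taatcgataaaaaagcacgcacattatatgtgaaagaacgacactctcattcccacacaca
nhr-58, chrV:532164-532224: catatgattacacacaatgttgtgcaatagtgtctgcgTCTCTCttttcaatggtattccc
nhr-31, chrIV:8026508-8026568: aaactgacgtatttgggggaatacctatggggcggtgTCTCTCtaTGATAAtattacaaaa
nhr-119, chrII:2801015-2801075: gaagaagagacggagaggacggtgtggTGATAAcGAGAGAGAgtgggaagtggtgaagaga
nhr-14, chrX:8475285-8475345: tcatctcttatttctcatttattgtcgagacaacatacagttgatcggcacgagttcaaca
nhr-19, chrII:9603601-9603661: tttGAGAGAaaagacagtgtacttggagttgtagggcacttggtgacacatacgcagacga

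Within 50 bp of the summit, GAGAGA was present in 9 of the 14 optimal peaks in receptor promoter windows (64.3%). The share was 24.4% of 487 for all optimal peaks in promoter windows and 1948 of 17447 (11.2%) for all pooled regions, each over the same 101 bp and both strands. Among all 142 pooled regions in receptor windows it was 28 (19.7%). These 142 include the 14 optimal peaks, which supplied 9 of the 28, so this share is not separate support. In the 14 optimal peaks inside receptor genes GAGAGA was present in 4 (28.6%), against 26.7% of all optimal peaks, so the higher share was that of the promoter peaks. TGATAA was present in 4 of the 14 promoter peaks (28.6%), against 81 of 487 (16.6%) for all optimal peaks in promoter windows. Inside receptor genes it was in 1 of 14 peaks (7.14%), against 18.1% of all optimal peaks. CACGTG was present in 2 of the 14 promoter peaks, at nhr-32 and nhr-31, and in 33 of 487 (6.78%) for all.

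AGGTCA, the half-site of many nuclear receptors, was in none of the 14 promoter peaks, against 17 of 487 (3.49%) for all optimal promoter peaks. Inside receptor genes it was in 3 of 14 optimal peaks, against 3.52% of all optimal peaks. The 3 were in introns of nhr-43, nhr-34 and nhr-17, that of nhr-17 at a tRNA gene. CAAAGT was in none of the 14 promoter peaks (33 of 487, 6.78%, for all), and neither was GCGCAGGG (2 of 487, 0.411%). Matches describe these windows only, and with 14 peaks each one moves a share by several percentage points.

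Optimal peaks lay in the promoter windows of 14 of the 266 receptor genes (5.26%, Clopper-Pearson 95% interval 2.91 to 8.67%). Among all protein-coding genes the share was 2.82%, or 563 of 19973. The 14 were nhr-48, nhr-105, nhr-32, nhr-135, nhr-58, nhr-31, nhr-43, nhr-291, nhr-34, nhr-3, nhr-57, nhr-97, nhr-119 and nhr-1, in order of signal. In the longer pooled list 95 receptor genes (35.7%) had a region in the window, and the share of all genes was 28.1%. No region of the pooled list or of either replicate lay in the windows of 117 receptor genes (44.0%), against 54.9% of all protein-coding genes. Members of a gene family are not independent samples, and no test was made of these differences.

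The receptor promoter peaks were not among the strongest of the experiment. Optimal signals at the 14 genes ran from 50.6 at nhr-1 (rank 946) to 83.9 at nhr-48 (rank 240). Their median rank among the optimal peaks was 665.0, against 481.0 over the 563 bound genes. Only 5 of the 14 were in the stronger 50% of the optimal peaks, against 295 of the 563. By comparison the peak of nhr-68, one of the receptor genes left out here, had a signal of 261.9 and rank 9. Farther down the pooled list the order was the other way. The median pooled rank was 5307.0 for the 95 receptor genes with a region, against 6892.5 for the 5606 protein-coding genes with one. This held on IV (3195.5 against 7013.0), V (6293.0 against 7222.0) and X (4411.0 against 6238.0). On I, II and III, with 6, 5 and 2 such receptors, the receptor medians were weaker than those of all genes. They were 11099.5 against 6571.0, 12970.0 against 7098.5 and 8317.5 against 6479.0.

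**Figure D1:**
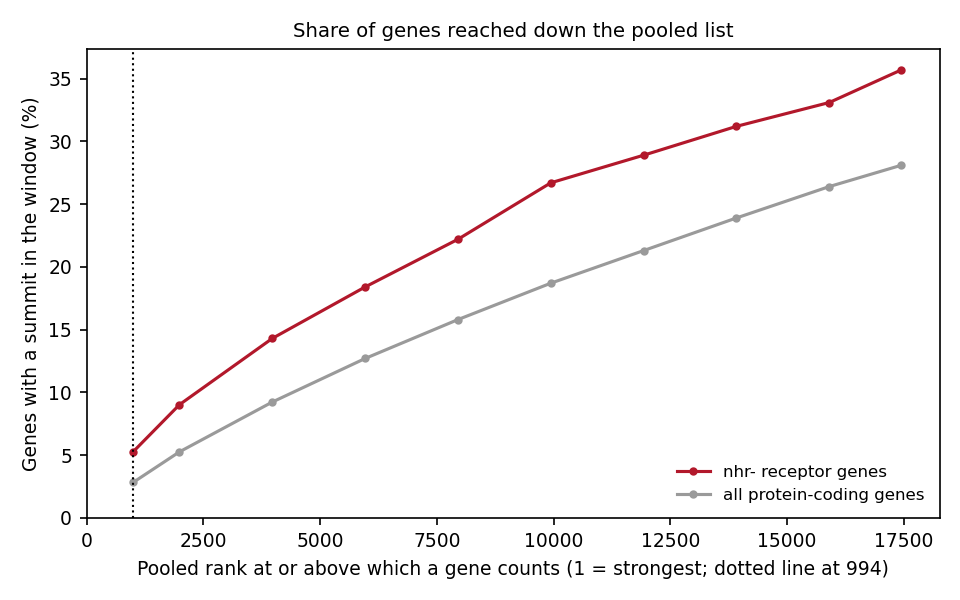
Percent of genes (vertical axis) whose promoter window held a pooled region at or above a given rank (horizontal axis, 1 is the strongest), for the 266 receptor genes and for all 19973 protein-coding genes. The receptor curve lay above the other at each rank plotted, at 5.26% against 2.82% at the end of the optimal list and at 35.7% against 28.1% for the whole list.

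All 14 peaks had the usual width of 424 bp, and none lay in the window of another gene, so each could be given to 1 receptor. Of the 14 summits, 11 were intergenic, 2 lay in introns of longer transcripts of the same gene (nhr-31 and nhr-34) and 1 in the 5' UTR of nhr-43. Measured to the nearest start of the gene, 13 lay upstream. The exception was nhr-43, with its summit 5 bp downstream of a start. Absolute distances ran to 652 bp at nhr-48, with a median of 318.5 bp. In a blastn search no other place in the genome matched any of the 14 at 90% identity or more. Annotated noncoding RNA genes lay within 200 bp of the summits at nhr-3 and nhr-43.

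The share of receptor genes bound was highest on X and IV. Chromosome V, where the family has expanded, holds 165 of the 266 receptor genes and 4994 of the 19973 protein-coding genes. Only 4 of its 165 receptors had an optimal peak (2.42%), near the 1.82% of all genes on V. Outside V, 10 of 101 receptors had one (9.90%), against 3.15% of all genes there. The 10 were mostly on IV and X. On X there were 4 of 23 (17.4%), against 3.84% of all X genes, and on IV 5 of 33 (15.2%), against 2.50% of all genes there. The remaining one, nhr-119, lay on II, where there are 15 receptors. None of the 23 receptors of chromosome I and none of the 7 of III had an optimal peak, with 3.06% and 3.94% of all genes there.

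The pooled list showed the same split more broadly. On X 20 of 23 receptors (87.0%) had a pooled region, against 33.0% of all X genes. On IV it was 16 of 33 (48.5%), against 26.9% of all genes there. On V it was 46 of 165 (27.9%), against 23.2%, and outside V 49 of 101 (48.5%), against 29.7%. On chromosome I the receptors had 6 of 23 (26.1%), against 29.4% of its genes, on II 5 of 15 (33.3%), against 26.6%, and on III 2 of 7, against 34.1%. The 3 X receptors with none, named after their values were seen, were nhr-26, nhr-71 and nhr-120. The last 2 had a region in replicate 1 only, at ranks 8078 and 8988.

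**Figure D2:**
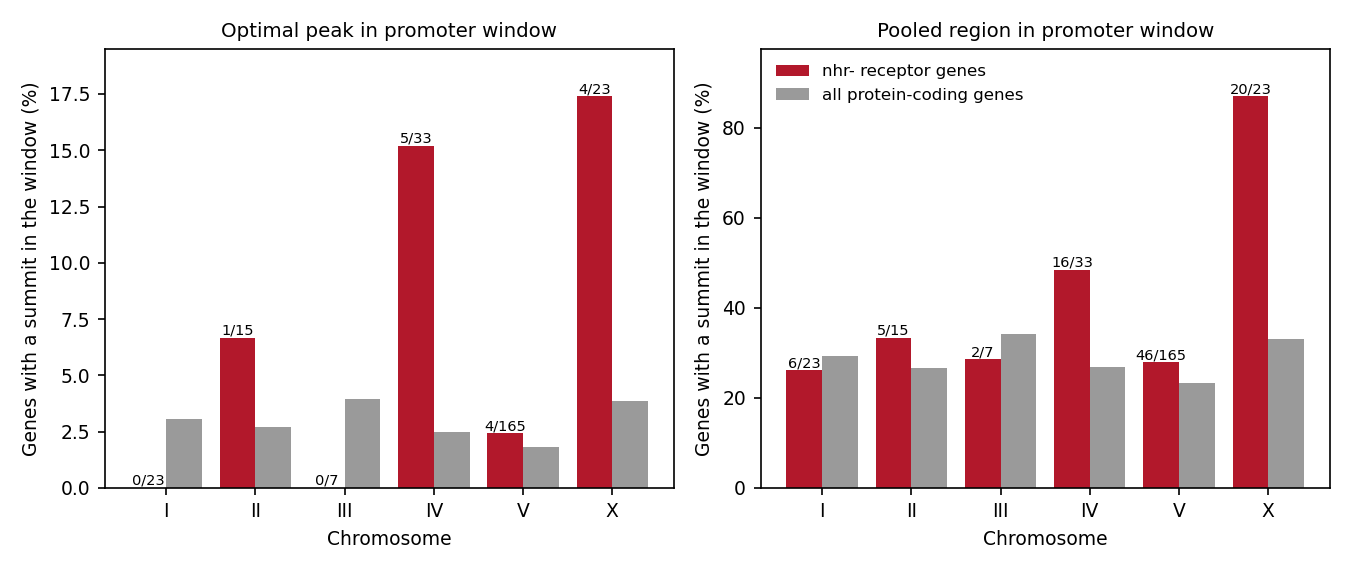
Percent of genes on each chromosome whose promoter window held an optimal peak (left) or a pooled region (right), with receptor genes on the left of each pair and all protein-coding genes on the right, and the receptor counts above the bars. Receptors on X and IV stood highest in both panels, at 4 of 23 and 5 of 33 for optimal peaks, while the 165 receptors on V had 4.

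Along V the pooled shares of receptors stood above those of all genes in each segment, least so in the middle. In the 25% of the chromosome at the left end, 22 of 73 receptors (30.1%) had a pooled region, against 19.0% of all genes. In the middle 50% it was 17 of 55 (30.9%), against 29.0%, and in the 25% at the right end 7 of 37 (18.9%), against 14.3%. The 4 receptors on V with an optimal peak were nhr-58 and nhr-57 in the left segment and nhr-135 and nhr-291 in the middle one. These were 2 of 73 in the left segment, against 1.32% of all genes there, and 2 of 55 in the middle one, against 2.48%. In the right segment it was 0 of 37, against 0.861%, and nothing is read from a count this low.

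Receptor genes with a long stretch of DNA upstream held most of the optimal peaks. The distance from the first start of a gene to the next protein-coding gene upstream had a median of 1590.0 bp for receptors and 936.0 bp for all genes. With 4000 bp or more upstream, 9 of 62 receptors (14.5%) had an optimal peak and 33 (53.2%) a pooled region. The shares of all genes with that distance were 2.40% and 26.3%. Of the receptors with less, 1 of 53 below 500 bp, 1 of 45 at 500 to 1000 bp, 0 of 54 at 1000 to 2000 bp and 3 of 52 at 2000 to 4000 bp had an optimal peak. Among all genes the optimal share was 2.72% below 500 bp and 2.40% at 4000 bp or more.

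Distance and chromosome moved together, since receptors had a median of 1092.0 bp upstream on V and 3319.0 bp elsewhere. On IV all 5 peaks lay at the 21 receptors with 4000 bp or more upstream (23.8%), against 2.83% of all such genes on IV. The other 12 receptors of IV had none. On X 2 of 12 receptors with 4000 bp or more had an optimal peak (3.63% of all such X genes), and 2 of 11 with less (3.94%). On V it was 1 of 17 at 4000 bp or more, namely nhr-135 with 9776 bp upstream, and 3 of 148 below, with 1.63% and 1.85% of all such genes. Pooled regions lay at 57.1% of the receptors of IV with 4000 bp or more and 33.3% of those with less, against 22.3% and 27.9% of all such genes. On I, II and III together it was 58.3% and 18.2%, against 27.5% and 30.1%. Pooled regions on X and V ran the other way. On X 83.3% of receptors with 4000 bp or more had one and 90.9% of those with less, and on V 23.5% and 28.4%. Annotated starts differed too, with a mean of 1.94 for receptors outside V and 1.55 on V, and each start adds a window. The mean was 1.70 for all receptors and 1.49 for all protein-coding genes. The parts of upstream length and of starts in these differences were not tested.

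**Figure D3:**
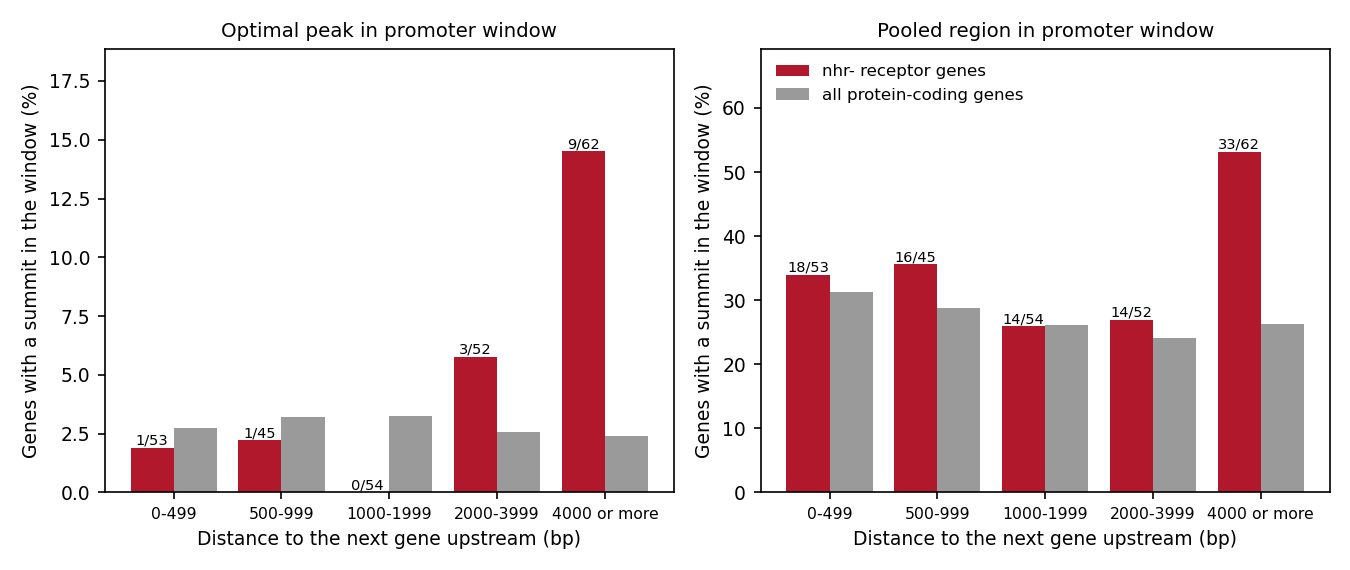
Percent of genes with an optimal peak (left) or a pooled region (right) in the promoter window, by the distance to the next protein-coding gene upstream in bp, with receptor genes on the left of each pair, their counts above the bars, and all protein-coding genes on the right. Receptors stood apart at 4000 bp or more, with 9 of 62 and 33 of 62, while all genes stayed near 2.40 to 3.24% and 24.1 to 31.3% in every class.

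Receptors next to another receptor were mostly on V. Of the 266, 137 lay next to another receptor with no other protein-coding gene between, in 44 runs of up to 9 genes, and 107 of these were on V. Among the 137, 4 had an optimal peak and 41 (29.9%) a pooled region, close to the 2.82% and 28.1% of all protein-coding genes. Of the 129 others, 10 had an optimal peak and 54 (41.9%) a pooled region. Only 2 pooled regions lay in the windows of more than 1 receptor, so sharing between neighbours added little to the counts. Of the 95 receptors with a pooled region, 60 had 1, 23 had 2, 10 had 3 and 2 had 4. The 2 with 4, nhr-49 on I and nhr-40 on X, have 6 and 2 annotated starts, and each added start widens the sequence searched. No such counts for all protein-coding genes stand beside these, so nothing is read from the number of regions per receptor.

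A region lay in the window in both replicate lists for 74 receptors (27.8%), against 19.5% of all genes. The best region was taken from each list by itself, so the 2 need not be the same site. At nhr-173, which has 1 start, their summits lay at 34 bp in replicate 1 and -645 bp (upstream) in replicate 2. Another 34 of the 266 had one in replicate 1 only and 38 in replicate 2 only, against 2508 and 2476 of the 19973 protein-coding genes. Of the 74, 37 ranked higher in replicate 2, with ranks as percent of the list length, and 37 in replicate 1; for all genes it was 1872 of 3887 (48.2%) in replicate 2. Across these 74 genes the Spearman correlation of the 2 ranks was 0.606, against 0.546 across the 3887 genes, as a description over genes of the same 2 libraries, which share a control alignment. A top region of both replicates lay in the windows of 7 receptors (2.63%), against 1.55% of all genes. These were nhr-105, nhr-48, nhr-135, nhr-58, nhr-31, nhr-57 and nhr-32, and all 7 had an optimal peak.

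The peak of nhr-48 lay at chrX:15707349-15707772 with rank 466 in replicate 1 and rank 220 in replicate 2. NHR-48 belongs to the small group of DAF-12, the receptor for the steroid hormones that govern larval diapause. The peak of nhr-105 at chrIV:7049636-7050059 had a pooled signal of 82.8 and had rank 85 in replicate 1 (signal 60.2) but 754 in replicate 2 (signal 31.1). This was the strongest receptor promoter peak of replicate 1, and it stood far lower in replicate 2. The peak of nhr-32 at chrX:13251397-13251820 had a pooled signal of 82.1 and had rank 820 in replicate 1 (signal 28.6) but 172 in replicate 2 (signal 52.5), the reverse order.

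On V the ranks were closer. The peak of nhr-135 at chrV:7093704-7094127, with a pooled signal of 78.4, ranked 482 and 287 in replicates 1 and 2. The peak of nhr-58 at chrV:531982-532405, with 70.0, ranked 505 and 444. The peak of nhr-57 at chrV:4131411-4131834, with 53.1, ranked 769 and 962. The gene nhr-57 is known as a target of HIF-1, the factor that responds to low oxygen. The peak of nhr-291 at chrV:15318593-15319016, with 57.2, ranked 578 and 1363. Of these 4 peaks on V, only that of nhr-291 was a top region in 1 replicate and not the other.

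On IV the peak of nhr-31 at chrIV:8026326-8026749, with a pooled signal of 59.1, ranked 656 and 812 in replicates 1 and 2. NHR-31 is known for control of vacuolar ATPase genes in the excretory cell, the worm's organ of salt and water balance. The peak of nhr-34 at chrIV:9667068-9667491, with 56.0, ranked 805 and 1076. The peak of nhr-43 at chrIV:11899383-11899806, with 57.9, ranked 431 and 1803, and that of nhr-97 at chrIV:9756999-9757422, with 51.6, ranked 734 and 2747. All 5 peaks on IV therefore stood higher in replicate 1, and only nhr-105 and nhr-31 had a top region in both replicates.

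On X the order was the other way. The peak of nhr-3 at chrX:14557930-14558353, with a pooled signal of 55.6, ranked 6707 in replicate 1 and 305 in replicate 2, the widest gap of the 14. Its signal was 12.9 in replicate 1 and 42.7 in replicate 2, each on its own list's scale. The peak of nhr-1 at chrX:17513522-17513945, with 50.6, ranked 2500 and 528. All 4 peaks on X stood higher in replicate 2, and nhr-48 and nhr-32 had a top region in both replicates. The last of the 14, nhr-119 at chrII:2800833-2801256, with 51.2, ranked 1637 and 1407 and was a top region of neither.

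The split of ranks by chromosome was not seen over all bound genes. Among protein-coding genes with an optimal peak and a region in both replicates, 53 of 104 on X ranked higher in replicate 2 (51.0%) and 43 of 82 on IV (52.4%). For receptors with a region in both replicates, whether optimal or not, 11 of 16 on X ranked higher in replicate 2, against 49.7% of all X genes, and 4 of 13 on IV, against 45.1%. On V it was 15 of 34, against 47.7%. The median ranks of the 16 receptors on X went the other way, at 2743.5 in replicate 1 and 3528.5 in replicate 2. No test was made, since genes of 1 library are not replicates.

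**Figure D4:**
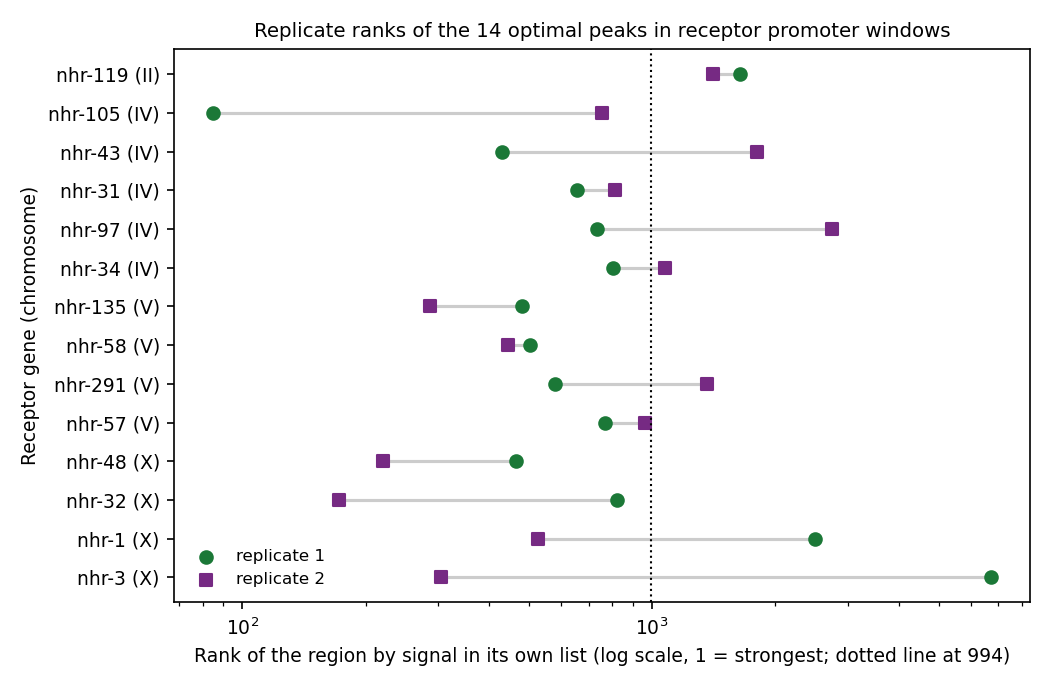
Rank of the 14 optimal peaks in receptor promoter windows in replicate 1 (circles) and replicate 2 (squares), on a log scale where 1 is the strongest region of that list, grouped by chromosome. The 5 peaks on IV stood higher in replicate 1 and the 4 on X in replicate 2, with the widest gap at nhr-3 (6707 and 305), and 7 of the 14 were top regions in both.

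Just below the optimal list, the next receptor was nhr-137 on X, with a pooled signal of 48.3 and rank 1074, beside 50.6 and rank 946 for nhr-1 just inside it. It ranked 2663 in replicate 1 and 700 in replicate 2. Next came nhr-66 on IV (46.1, rank 1213), which ranked 4625 and 535 in replicates 1 and 2. NHR-66 is known to act with NHR-49 on lipid genes. Then followed 5 receptors on V, which were nhr-47 (45.2), nhr-212 (44.3), nhr-143 (44.3), nhr-50 (43.9) and nhr-142 (41.3), and nhr-35 on X (40.5). They lay at ranks 1279 to 1671. The last of these 10 were nhr-49 on I, with 39.4 and rank 1783, and nhr-226 on V, with 38.7 and rank 1865. Of the 10, nhr-47 and nhr-49 (rank 676) had a top region in replicate 1, and nhr-137, nhr-66, nhr-212 and nhr-50 in replicate 2. None was in both.

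Several receptors had strong peaks inside the gene, beyond the promoter window. A total of 14 optimal summits lay in the bodies of 11 receptor genes outside the windows of that gene, or 4.14% of receptors, against 1.15% of all protein-coding genes. The strongest was at chrX:8475103-8475526 in an intron of nhr-14, 861 bp downstream of the nearest start, with a signal of 145.9. It ranked 44 in the optimal list, 58 in replicate 1 and 53 in replicate 2. NHR-14 is known from work on iron uptake and defence against pathogens. The promoter window of nhr-14 held only a weak pooled region, at rank 13858. A second peak of nhr-14, with its summit in the 3' UTR, had a signal of 73.0 and ranked 364.

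The peak at chrII:9603592-9603709 in an intron of nhr-19, 1619 bp downstream of a start, had a signal of 142.5 and ranked 50, with ranks of 47 and 62 in replicates 1 and 2. A second peak in nhr-19, 3912 bp downstream, had 82.7 and ranked 254. The start nearest to its summit was that of mrpl-53, at 3716 bp. In nhr-3 an intronic peak 1898 bp downstream had 126.3 and ranked 66, above the 55.6 of its promoter peak, and it ranked 285 in replicate 1 and 45 in replicate 2. In nhr-48 an intronic peak 1371 bp downstream had 108.9 and ranked 104, above the 83.9 of its promoter peak. These 4 genes therefore held all of the receptor peaks of rank 104 or better, each in an intron.

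The other body peaks were weaker, at ranks 619 to 987. Of these, nhr-34 held 2 (ranks 692 and 958) beside its promoter peak, and nhr-43 held 1 (rank 651) beside its own. The rest were in nhr-137 (rank 619), nhr-46 (729), nhr-66 (801), nhr-17 (986) and nhr-27 (987). The nhr-17 summit lay 2598 bp from the nhr-17 start and 1353 bp upstream of nlp-76. It lay within 200 bp of a tRNA gene, and its region had 10 matches of 100 bp or more at 90% identity or above elsewhere in the genome. No other body peak had such a match. The nhr-27 summit lay 48452 bp from the nearest nhr-27 start and 2281 bp upstream of cept-1. Of the 14 body summits, 13 were intronic and 7 on X, and 6 of the peaks overlapped top regions in both.

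The share of receptors with a body peak differed by gene length and by chromosome. Of the 38 receptors of 5000 bp or longer, 7 had one (18.4%), against 3.84% of all genes of that length. Among the 228 shorter receptors it was 4 (1.75%), against 0.627%. By chromosome, 6 of 23 receptors on X had one (26.1%), against 2.23% of all X genes, 4 of 33 on IV (12.1%), against 0.823%, and 1 of 15 on II, against 0.986%. On V it was 0 of 165, against 0.661% of all genes there, on I 0 of 23, against 1.25%, and on III 0 of 7, against 1.44%. With shares of all genes this low, nothing is read from the counts of 0. Length and chromosome were not separated, since receptors had a median length of 2140.0 bp on V and 3143.0 bp elsewhere. The part of each was not tested. Counting promoter windows and bodies together, 21 receptors (7.89%) had an optimal peak, against 3.71% of all genes, and nhr-3, nhr-34, nhr-43 and nhr-48 had peaks in both places.

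A chosen list of receptors with a counterpart in insects or vertebrates outside the HNF4 group held 9 genes, and it may not be complete. Of these, 1 had an optimal peak, nhr-48, and 7 had a pooled region, against 2.82% and 28.1% of all protein-coding genes. The median pooled rank of the 7 was 3481.0, against 5307.0 for the 95 receptors and 6892.5 for all genes with a region. Regions at nhr-25, the counterpart of FTZ-F1, ranked 3154 in the pooled list (4090 and 4977 in replicates 1 and 2), those at nhr-91 ranked 3255 and at nhr-8, related to DAF-12 and known for resistance to toxins, 3481 (1740 and 6428). Regions at nhr-85, the counterpart of Rev-erb, ranked 6208 and those at nhr-41 ranked 7683. The weakest was nhr-23, the counterpart of ROR and like nhr-25 required for molting, at rank 12036 (6328 and 17592). The window of nhr-6 held a region in replicate 1 only, at rank 7600. That of nhr-67, the counterpart of tailless, held none in any list. The 3 molting receptors nhr-23, nhr-25 and nhr-85 thus had pooled regions and no optimal peak.

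Of the 7 receptors known for fat metabolism, 4 had a pooled region and 0 an optimal peak in the promoter window. With 2.82% of all protein-coding genes bound, nothing is read from a count of 0 in 7. The strongest was nhr-66, at pooled rank 1213, which has an optimal peak in its body. Next was nhr-49, which controls fatty acid breakdown and desaturation, at rank 1783, with ranks of 676 in replicate 1 and 4173 in replicate 2. The region of nhr-80, which works with NHR-49 on desaturase genes, ranked 4487 and that of nhr-76 ranked 9611. Regions at nhr-62 and nhr-64 were in both replicate lists, at ranks of 15716 to 17137, and in no pooled region, and nhr-13 had none.

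Of 6 receptors known from responses to toxins, pathogens or low oxygen, nhr-57 had an optimal peak. Pooled regions at nhr-8, nhr-45, nhr-176 and nhr-14 ranked 3481, 5307, 8964 and 13858. NHR-45 is known for a role in mitochondrial stress and NHR-176 for the response to the drug thiabendazole. The window of nhr-86, whose product senses a bacterial metabolite, held a region in replicate 1 only, at rank 9607. Pooled regions were thus present at 5 of these 6 genes, 4 of 7 fat metabolism genes and 7 of 9 conserved genes, against the 28.1% of all protein-coding genes, with lists too short to read a share from.

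**Figure D5:**
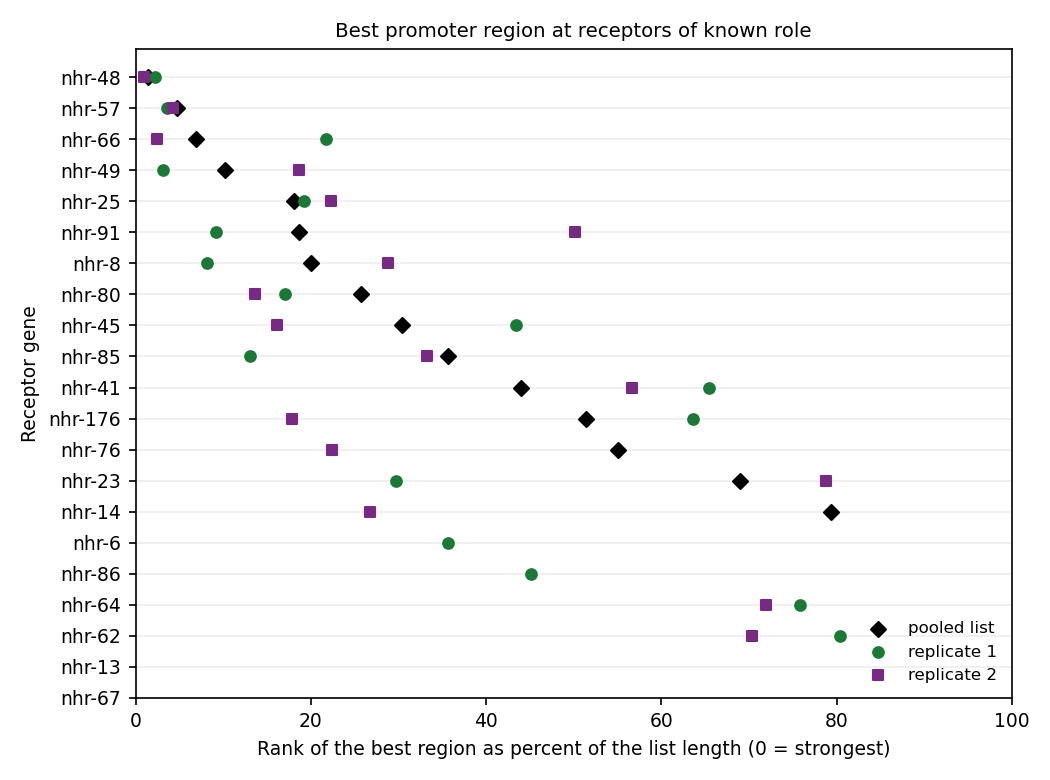
Rank of the best region in the promoter window as percent of the list length (0 is the strongest) for receptors with a known role, in the pooled list (diamonds), replicate 1 (circles) and replicate 2 (squares). Only nhr-48 and nhr-57 stood within 5% of the top in all 3 lists, and nhr-13 and nhr-67 had no region.

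Of 5 nuclear receptor genes with other symbols, 1 had a pooled region, against 28.1% of all protein-coding genes, a list too short to read a share from. The window of daf-12 held a pooled region at rank 2319 (6971 in replicate 1 and 2001 in replicate 2), odr-7 a region in replicate 1 only, and fax-1, sex-1 and unc-55 none. Among 6 genes for receptor cofactors and for enzymes that make steroid ligands, 2 had optimal peaks, against 2.82% of all protein-coding genes. This list too was too short to read a share from. That of cbp-1, which encodes the p300 family acetyltransferase, had a signal of 133.0 and ranked 62, with ranks of 108 and 54 in replicates 1 and 2. That of din-1, the corepressor partner of DAF-12, had 109.8 and ranked 98, with ranks of 147 and 113. The Mediator subunit gene mdt-15, whose product is a coactivator of NHR-49, had a pooled region at rank 4491. The genes daf-12, din-1 and mdt-15 also had optimal peaks in the gene body. The gene gei-8, a corepressor, had a region in replicate 2 only, as did the steroid enzyme gene daf-36, and daf-9 had one in replicate 1 only.

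A pair of other gene families gives a scale for the receptor counts. Of 63 homeobox genes named ceh-, which also encode transcription factors, 2 had an optimal peak (3.17%, interval 0.387 to 11.0%) and 8 a pooled region (12.7%). Of 220 srh- genes, which encode chemoreceptors and like the receptors form a large nematode family, 1 had an optimal peak (0.455%, interval 0.0115 to 2.51%) and 21 a pooled region (9.55%). The pooled share of the nuclear receptors was 35.7%. Of the receptor genes left out, nhr-68 had an optimal peak, nhr-114 a pooled region at rank 1605, and the window of nhr-10 held no region in any list.

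Genes beside nhr-10 and beside unc-119 were looked at separately, since the strain carries an added nhr-10 construct. Of the 266 receptors only nhr-9 lay within 20 kb of nhr-10, at 15.1 kb, and none lay that near to unc-119. The window of nhr-9 held no region in any of the 4 lists.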

How the data were processed

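ChIP-seq of eGFP-tagged NHR-10 in L4 larvae was analysed as 1 group of 2 biological replicates, taken from the labels. The labels name fragments of 150 to 350 bp. Per the descriptions deposited with the files, regions were called for each replicate and for both together with the same single control alignment, and optimal peaks were chosen by the irreproducible discovery rate. The caller, aligner and threshold were not given in the sources used here. The value used is the authors' deposited signal per region, whose scale and normalization are not stated, so it was compared within lists only. The ce10 lists were not used here, since the annotation is of ce11. Depth per sample is unknown.

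Summits (1-based) were assigned to promoter windows of protein-coding genes of Ensembl release 115 with Python 3.11.15 and pandas 2.3.3, and the assignment was tested on simulated data. The best region of a gene was the one of highest signal. Intervals are exact binomial (Clopper-Pearson, scipy 1.17.1, 95%). Peak copies were sought with blastn 2.17.0, and motifs in the RefSeq sequence of WBcel235. The receptors, lists and motifs were chosen with earlier results of these data known. No test was run, because there is no second condition. Values were named by rule: all receptors with an optimal peak and the 3 with the largest ratio of replicate ranks each way, the next 10 by pooled signal, and every member of the role lists; body peaks were added after the data were seen. Alternatives changed the window, the starts, the assignment, the lists and the replicates, or left out nhr-9.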

Additional observations from a re-analysis of the deposited data

How the results depend on the processing

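Of 60 recomputed values for 8 results, 54 stayed within set limits. These were 1.5 times the count given, the binomial interval of the share or 939.0 ranks. The 939.0 is the SD between the replicates' median ranks, with each list cut to its 17447 strongest regions. It rests on 2 values only. Those same medians were then judged by it, so for them the limit is no independent check. The 54 include the values recomputed without nhr-9, the receptor near nhr-10. These could not change, since nhr-9 had no region in any list, and they say nothing on stability. The limits were also wide. In the stronger 50% of the pooled list, 64 receptors had a region instead of 95, and this passed. In the stronger 50% of each replicate list it was 51 in both instead of 74, which passed too. The 54 therefore do not show that the counts were stable. With the stronger 50% of the optimal peaks, 5 receptors were bound (1.88%, against 1.48% of all genes). The count of receptors with a top region in both replicates was 2 with the 500 strongest of each, and 12 with 2 times as many top regions, where 11 optimal receptor peaks overlapped one in both. Fewer or more regions set these counts. The median pooled rank was 6298.0 with the most upstream start only, and the cause was not tested. To put 1 replicate in place of the pooled list, its 17447 strongest regions were used. Its top regions stood in for the optimal peaks. The median rank was then 5000 to 6328.0, and 97 to 99 receptors had a region. A top region lay at 13 to 15 receptors, of which 33.3 to 38.5% were on V. The full lists of replicates 1 and 2 gave 108 and 112 receptors with a region, at median ranks of 7027.5 and 6155.5. The optimal share of receptors stayed above that of all genes in each alternative, by 1.27 times (the stronger 50%) to 2.33 times (nearest start only). The depth behind the signal is unknown. No paired analysis was possible because there is only 1 group.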
